A study of Brassica oleracea var. capitata with 6 samples.

Results

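The genes described here are annotated cabbage genes whose level hardly differed between 6 leaf RNA-seq libraries. A gene was included when its mean FPKM was at least 5 and under 300 and its highest FPKM was at most 1.6 times its lowest over all 6 libraries. FPKM counts fragments per kilobase of transcript and is scaled to the fragments mapped in a library. Of 31497 features in the deposited gene table, 27024 were annotated genes with a Bol ID, and 162 of these with IDs from *Bol018400* to *Bol018600* were left out. Of the remaining 26862, 8377 had a mean FPKM in the stated window (the genes of the same level), and 470 of these (5.61%) met the ratio. All 6 libraries took part in the choice, so the narrow spread of these 470 genes, and a small difference between genotypes, follow from it and are described without a test.

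Leaves of *Brassica oleracea* var. *capitata* at the harvesting stage were compared between the glossy mutant *nwgl* and wild type, with 3 biological replicates of each genotype. The *nwgl* plant came from the inbred line G287 and its phenotype is inherited as a dominant trait. The leaves of the mutant have little cuticular wax, the layer of very long chain lipids that gives a cabbage leaf its bloom. The labels give no plant age other than the stage, and no sowing, sampling or sequencing batch.

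Constant genes serve as internal references. In quantitative PCR, and in many comparisons of transcriptomes, the level of a gene of interest is divided by that of a gene taken to be steady, so that differences in the amount of input RNA cancel. Genes of basic cell functions, such as actins, tubulins, ubiquitins and translation elongation factors, are the usual choices in plants, yet such genes can vary between organs, stages or plants. A reference is therefore judged by 2 measures, its own spread over samples and the steadiness of its ratio to other candidate genes. The first depends on how the libraries are put on a common scale. A ratio of 2 genes does not, although the choice of candidate genes can.

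The files identify the genes by ID only. Of the 470 IDs, 0 occurred in the RefSeq table of the BOL assembly, so no gene symbol could be attached, the customary families could not be looked up and the labelled tissue could not be checked against leaf markers. The files state no read totals. With wild-type replicate 1 set to 1, the depth estimated from steps between low FPKM values was 0.893 at the lowest (wild-type replicate 3) and 1.02 at the highest (*nwgl* replicate 2). These estimates are weak, resting on 12 to 42 coinciding ratios per library against 3 to 11 at the next candidate depth. Only a limited range of depths was searched. The share of summed FPKM that went to the 10 most abundant features ranged from 22.7% in *nwgl* replicate 2 to 57.3% in *nwgl* replicate 3. Median-of-ratios scaling divides each library by the median ratio of its genes to their geometric means over the libraries, here over 22034 features above 0 in all libraries. Its factors were 1.03, 1.24 and 0.792 in wild-type replicates 1 to 3 and 0.906, 1.26 and 0.875 in *nwgl* replicates 1 to 3. Both libraries numbered 2 thus stood above the rest, and wild-type replicate 3 was the lowest. The largest factor was 1.59 times the smallest, so that a gene of exactly equal FPKM in every library would differ by that ratio after scaling.

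Most of the constant genes were of moderate level. Their mean FPKM ran from 5.01 to 125.3 with a median of 8.87, against a median of 10.6 for all genes of the same level. A mean under 10 FPKM was found in 268 of the 470 (57.0%), and a mean of 50 or more in 4. The share of annotated genes within the ratio was 6.88% at 5 to 10 FPKM, 6.06% at 10 to 20 and 2.83% at 20 to 50. It was 0.940% at 50 to 100 FPKM (3 of 319 genes) and 0.806% at 100 to 300 FPKM (1 of 124 genes). Below the window, at 1 to 5 FPKM, it was 4.34%, and above it, at 300 FPKM or more, 1 of 44 genes was within the ratio. These are whole leaves, in which a lower level can mean fewer cells of a type or less RNA per cell, and the 2 cannot be told apart. After median-of-ratios scaling the shares were higher in each class from 1 to 100 FPKM, and the 2 classes from 5 to 20 FPKM still had the highest (16.2% and 16.0%).

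**Figure D1:**
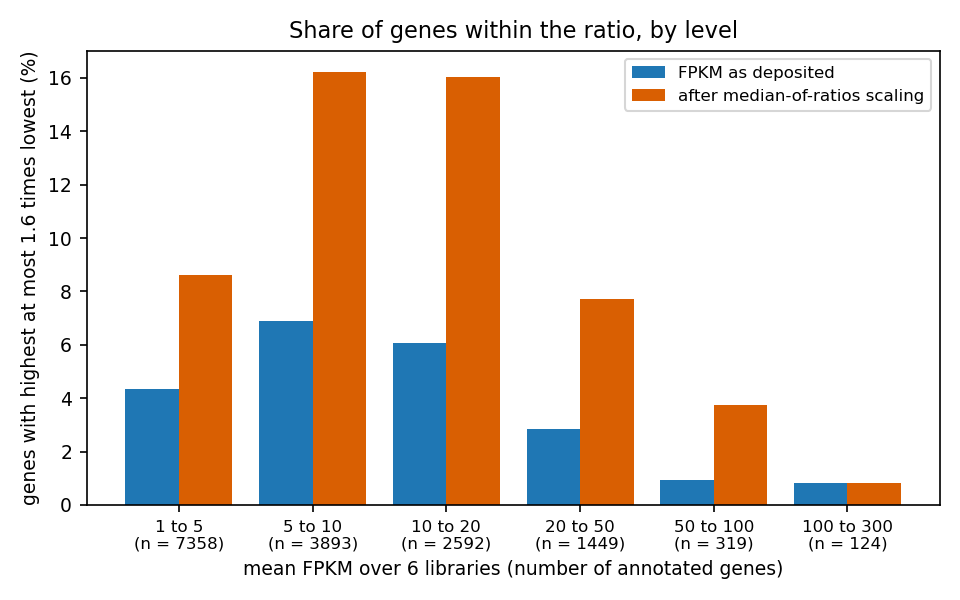
Share of annotated genes whose highest value was at most 1.6 times the lowest (y axis, %), by mean FPKM over the 6 libraries (x axis, number of genes in brackets), for FPKM as deposited and after median-of-ratios scaling. The share as deposited is 6.88% at 5 to 10 FPKM and 0.806% at 100 to 300 FPKM.

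The 4 constant genes of 50 FPKM or more show how differently such genes can be steady. *Bol035800*, the most abundant, had FPKM values of 98.4, 111.4 and 156.2 in wild-type replicates 1 to 3 and 105.7, 150.6 and 129.3 in *nwgl* replicates 1 to 3. Its coefficient of variation, the SD divided by the mean over the 6 libraries, was 19.3% and rose to 31.1% after scaling. *Bol033205* had 60.1, 66.4 and 60.03 FPKM in wild-type and 60.15, 67.9 and 51.8 FPKM in *nwgl* leaves. It was the steadiest of the 4, with a coefficient of variation of 9.37% as deposited and 13.9% after scaling. *Bol035831* was carried out of line by a single library, with 99.1 FPKM in wild-type replicate 1 against 66.3 to 76.0 FPKM in the other 5. *Bol037759* had its highest value, 74.8 FPKM, in wild-type replicate 2 and its lowest, 47.1 FPKM, in wild-type replicate 1. In each of the 4 the libraries of the genotypes overlapped.

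Over the 470 genes the coefficient of variation of FPKM was 3.66% to 21.6%, with a median of 15.3%. For all genes of the same level the median was 39.8%. Within a genotype the constant genes had a median of 15.2% among wild-type and 13.9% among *nwgl* libraries, and the genes of the same level 39.6% and 30.04%. The narrowest ratio of highest to lowest was 1.09 and the median 1.49. Just inside the limit were *Bol033848* (ratio 1.5998) and *Bol006524* (1.5996), and just outside it *Bol036789* (1.6016) and *Bol036105* (1.6017). On the scaled values those outside were steadier than those inside, with coefficients of variation of 14.2% and 12.7% against 21.6% and 26.1%.

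Ranked on FPKM as deposited, *Bol041028* was the steadiest gene of all. Its FPKM was 10.1, 10.8 and 10.7 in wild-type and 10.8, 10.2 and 11.1 in *nwgl* leaves. The means were 10.6 ± 0.377 and 10.7 ± 0.475 FPKM (SD, n = 3 each), and the coefficient of variation over the 6 libraries was 3.66%. *Bol007624* followed at 19.7, 20.4 and 21.6 FPKM in wild-type and 18.8, 20.1 and 19.2 FPKM in *nwgl* leaves (coefficient of variation 4.90%). *Bol033482* was next, at 7.68, 7.38 and 7.26 FPKM in wild-type and 7.76, 7.57 and 6.49 FPKM in *nwgl* leaves (6.29%). In all 3 the genotypes overlapped, and in *Bol033482* *nwgl* replicate 3 was the lowest. The others of the 10 steadiest were *Bol026714*, *Bol012775*, *Bol028594*, *Bol017872*, *Bol020381*, *Bol035965* and *Bol038189*, with coefficients of variation of 6.31% to 7.97% and mean FPKM of 5.35 to 15.8. The level of 38 of the 470 genes varied by under 10%.

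After median-of-ratios scaling another set of genes led. *Bol022151* had 9.10, 10.7 and 7.10 FPKM in wild-type and 8.08, 10.7 and 8.02 FPKM in *nwgl* leaves as deposited, a coefficient of variation of 16.7% that placed it 344th. Scaled, it had 8.86, 8.59 and 8.96 in wild-type and 8.92, 8.53 and 9.16 in *nwgl* leaves, and its coefficient of variation of 2.70% was the lowest. *Bol023324* had 8.94, 10.2 and 6.51 FPKM in wild-type and 7.10, 9.77 and 7.26 FPKM in *nwgl* leaves as deposited. It was high in both libraries numbered 2 and lowest in wild-type replicate 3, as the factors were, and its coefficient of variation fell from 18.7% to 4.14% on scaling. *Bol027792*, *Bol015059*, *Bol044375*, *Bol015458*, *Bol026646*, *Bol025015*, *Bol021315* and *Bol007668* completed the 10 steadiest after scaling. These 8 had coefficients of variation of 4.21% to 5.72% scaled, and of 15.04% to 19.5% as deposited. The most abundant of them were *Bol021315* with a mean of 46.4 FPKM and *Bol044375* with a mean of 35.3 FPKM. Scaled, 70 of the 470 genes varied by under 10%.

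**Figure D2:**
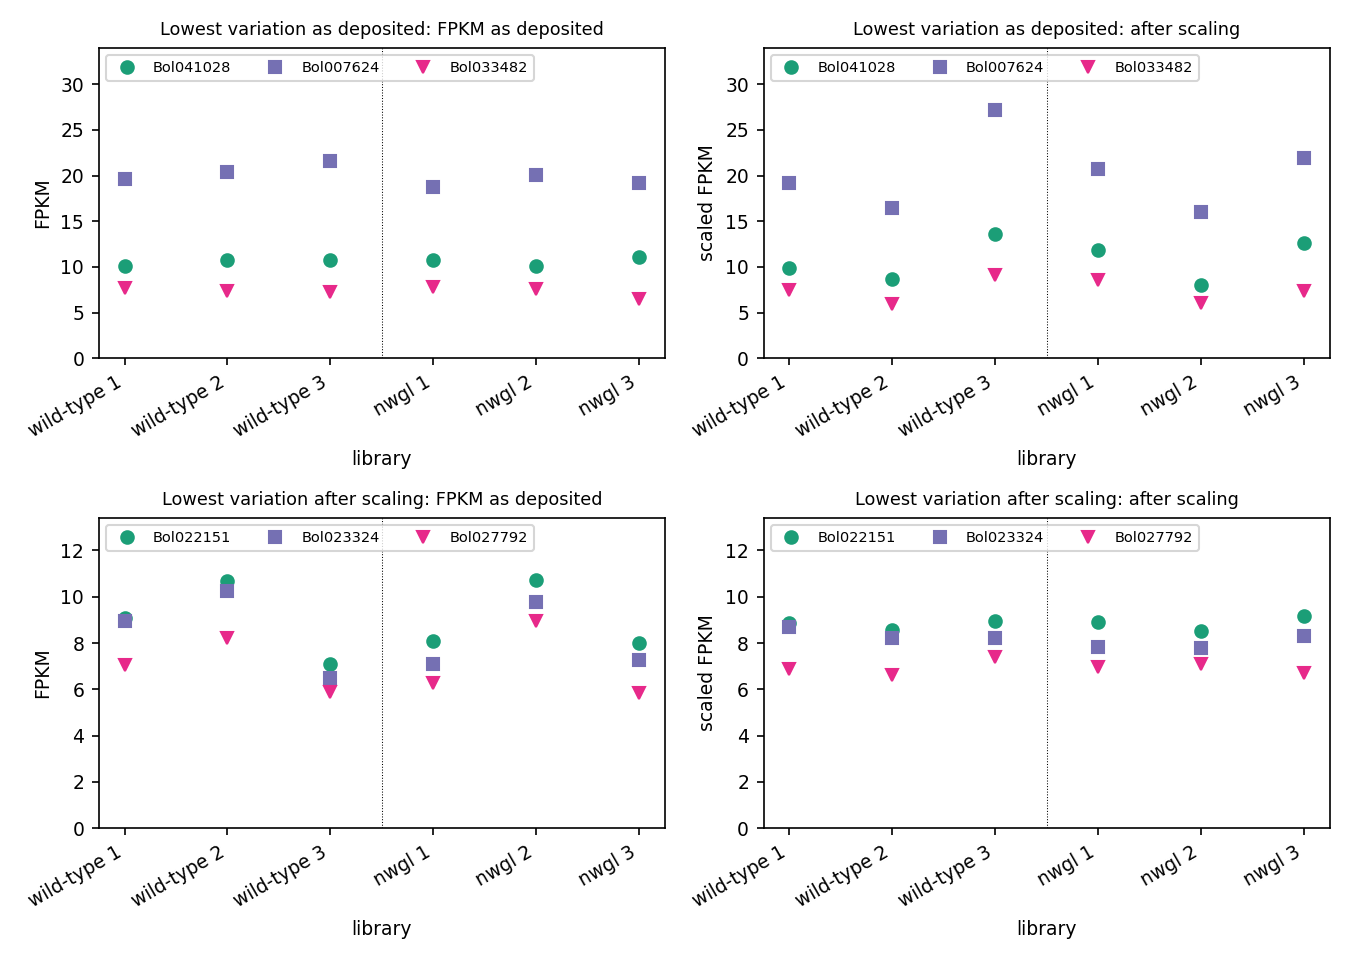
Level (y axis, FPKM at left, scaled FPKM at right) in each library (x axis) of the 3 genes of lowest coefficient of variation as deposited (upper panels) and after scaling (lower panels); each point is 1 library. *Bol041028* runs from 10.1 to 11.1 FPKM as deposited and from 8.07 to 13.6 after scaling, and *Bol022151* from 7.10 to 10.7 FPKM and from 8.53 to 9.16.

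The orders by coefficient of variation before and after scaling had little in common. Of the 10 steadiest genes of each order 0 were shared, of the 50 steadiest 0, and of the 100 steadiest 6. Spearman's rho between the orders was -0.16 over the 470 genes, which share the same 6 libraries and are not independent. *Bol041028*, first as deposited, was 352nd after scaling with a coefficient of variation of 20.8%, and its scaled values were 9.86, 8.70 and 13.6 in wild-type and 11.9, 8.07 and 12.7 in *nwgl* leaves. *Bol007624* was 343rd (20.4%). The 50 steadiest as deposited had a median coefficient of variation of 9.39%, which became 17.6% on scaling, and 22 of them then exceeded the ratio of 1.6. The 50 steadiest after scaling had a median of 7.28%, and of 16.6% as deposited. No gene varied by under 10% on both scales. Dividing a flat gene by factors that differ gives it their spread, so a very steady gene on either scale cannot be so on the other. The lack of shared leaders, and of genes under 10% on both scales, therefore follows largely from the choice and the factors. Scaling raised the coefficient of variation of 291 of the 470 genes and lowered it in 179.

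**Figure D3:**
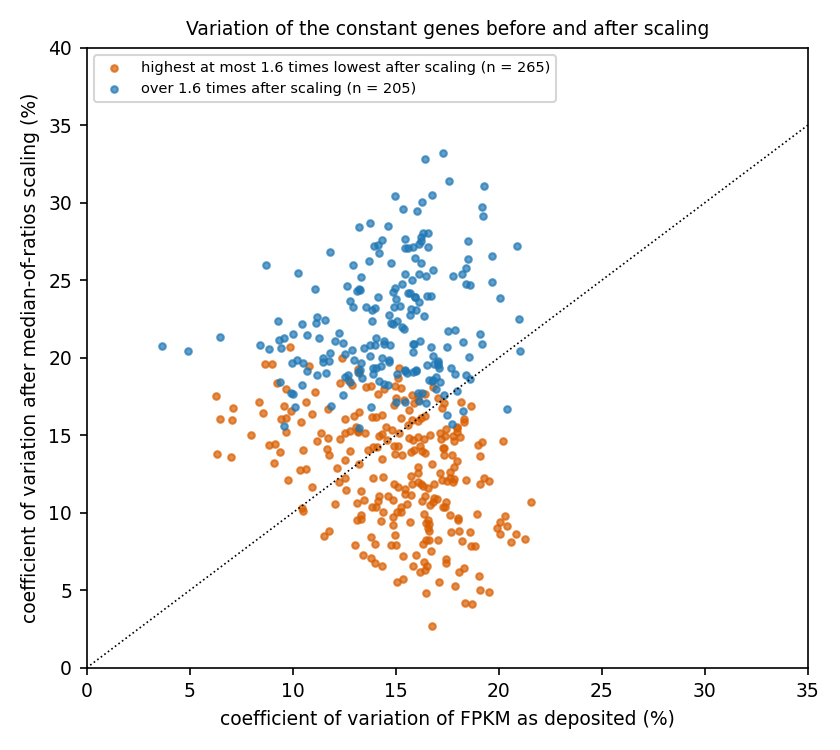
Coefficient of variation over the 6 libraries (%) of the 470 constant genes, as deposited (x axis) and after median-of-ratios scaling (y axis); the dotted line marks equal values. The 265 genes still within the ratio of 1.6 after scaling and the 205 that exceeded it are coloured apart, and no point lies under 10% on both axes.

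After scaling, 265 of the 470 genes (56.4%) still had a highest value of at most 1.6 times the lowest, and 205 did not. The same rule applied to scaled values chose 1159 genes, of which 264 were among the 470. The shared genes made up 56.2% of the set chosen on FPKM and 22.8% of the set chosen on scaled values. Among all genes of the same level 1172 (14%) were within the ratio once scaled. Which genes met the rule, and how many, therefore depended on the scale. Factors taken only from the annotated genes of the same level ran wider, from 0.708 in wild-type replicate 3 to 1.32 in *nwgl* replicate 2. With them 131 of the 470 stayed within the ratio. With quantile normalization it was 152, and with upper-quartile scaling 277.

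The libraries also show this. As deposited, 342 of the 470 genes (72.8%) had their highest FPKM in a library numbered 2, 159 in wild-type replicate 2 and 183 in *nwgl* replicate 2, and 33 had their lowest there. Among all genes of the same level above 0 throughout, 58.0% had their highest value in these 2 libraries. Relative to its mean over the 6 libraries, the median constant gene stood at 0.947, 1.11 and 0.936 in wild-type and at 0.907, 1.12 and 0.931 in *nwgl* leaves. Both libraries numbered 2 were thus high and the other 4 low, by less than the factors differ. After scaling the order was turned round, as follows from dividing genes chosen for near-equal FPKM by these factors. Wild-type replicate 3 then held the highest value of 280 genes and the lowest of 0. Wild-type replicate 2 held the highest of 1 and the lowest of 159, and *nwgl* replicate 2 the highest of 2 and the lowest of 155. The 10 most abundant features took 44.1% of summed FPKM in wild-type replicate 2 and 22.7% in *nwgl* replicate 2, and 47.7% in wild-type replicate 3, and their part in these levels was not tested.

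**Figure D4:**
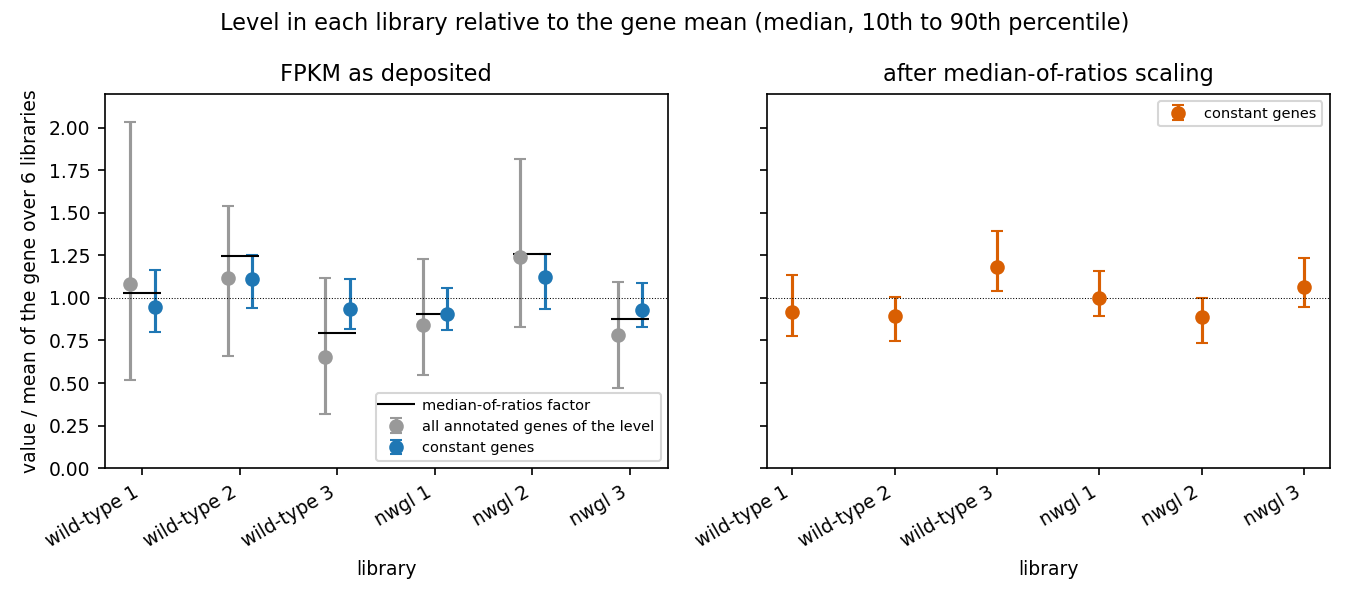
Level in each library (x axis) divided by the mean of the gene over the 6 libraries (y axis); points are medians over genes and bars run from the 10th to the 90th percentile. Constant genes and all annotated genes of the same level are shown as deposited, with the median-of-ratios factors as black dashes, and constant genes alone after scaling. The median constant gene lies at 1.12 in *nwgl* replicate 2 as deposited and at 1.18 in wild-type replicate 3 after scaling.

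How closely a gene followed the factors was measured as the slope of its log2 FPKM on the log2 factor over the 6 libraries, which is 0 for a gene that is flat as deposited and 1 for a gene that moves as the factors do. The median slope was 0.41 for the constant genes and 1.203 for the genes of the same level above 0 in every library. A slope under 0 was found in 50 constant genes, one from 0 to 0.25 in 98, one from 0.25 to 0.75 in 273 and one of 0.75 or more in 49. The 10 steadiest as deposited had slopes of -0.10 to 0.31, and the 10 steadiest after scaling slopes of 0.77 to 0.98. The constant genes thus ranged over both of these ends, and below the first down to a slope of -0.64. A narrow ratio limits the slope, so that the difference from other genes follows from the choice.

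Genes between the ends changed least in spread between FPKM as deposited and median-of-ratios scaling. A coefficient of variation under 12% on both of these scales was found in 5 genes, a limit set after the values were seen. Their values with other scalings were not read, so steadiness beyond these 2 scales is not shown. *Bol005475* had 8.86, 9.57 and 7.59 FPKM in wild-type and 7.98, 9.66 and 7.46 FPKM in *nwgl* leaves, with coefficients of variation of 11.5% as deposited and 8.497% scaled. *Bol043769* had 9.16, 11.0 and 8.08 FPKM in wild-type and 9.46, 10.9 and 9.001 FPKM in *nwgl* leaves, with 11.7% and 8.80%. In both genes the libraries numbered 2 were the highest in each genotype, and the genotypes overlapped. The others were *Bol026883* (10.4% and 10.3%), *Bol045640* (10.5% and 10.1%) and *Bol042533* (10.9% and 11.7%). With a limit of 15% there were 65 such genes.

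The ratio of a gene to another in the same library does not change with any scaling factor. For each of the 110215 pairs among the 470 genes the SD of the log2 ratio over the 6 libraries was taken, and for each gene its mean over all pairs. The median of the pair values was 0.24, and the means per gene ran from 0.18 to 0.39. *Bol017872* had the lowest mean (0.18), at 11.7, 13.2 and 11.3 FPKM in wild-type and 10.9, 12.3 and 11.3 FPKM in *nwgl* leaves. It was followed by *Bol028871* and *Bol026883*, whose means were 0.18 and 0.19. *Bol017872* and *Bol026714*, which was in place 5 of this order, were also among the 10 steadiest as deposited. The partners in these means are the 470 genes chosen on FPKM as deposited. The order is therefore not independent of that scale. *Bol041028*, the steadiest as deposited, was 172nd, and *Bol022151*, the steadiest after scaling, 127th.

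The most alike pair was *Bol011929* and *Bol043500*. The FPKM of *Bol011929* divided by that of *Bol043500* was 2.52, 2.46 and 2.52 in wild-type and 2.51, 2.53 and 2.54 in *nwgl* leaves, an SD of 0.017 on the log2 scale. Each gene alone varied far more, by 16.4% and 17.0%, with both libraries numbered 2 high. *Bol004733* and *Bol020372* came next, with ratios of 0.952, 0.951 and 0.952 in wild-type and 0.949, 0.968 and 0.982 in *nwgl* leaves (SD 0.020). Their single values were lowest in *nwgl* replicate 1 at 4.40 and 4.63 FPKM and highest in wild-type replicate 2 at 6.97 and 7.33 FPKM. These pairs are the extremes of a very large number, over only 6 libraries, and how reads that match more than 1 gene were assigned is not stated.

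Between genotypes the constant genes differed little, as the rule requires. The log2 ratio of the *nwgl* mean to the wild-type mean FPKM lay between -0.48 and 0.47, with a median of -0.03, and it was above 0 in 210 genes and below 0 in 260. The median size of the ratio was 0.12, against 0.36 for the genes of the same level. Every *nwgl* library lay above every wild-type library in 16 of the 470 genes and below in 26, together 42 genes (8.94%). Of all 24332 features tested, 20.3% were separated in this way. After scaling it was 13 of the 470 (2.77%), beside 24.4% of all features. In limma, fitted to log2(FPKM + 0.1) of all features, 0 of the 470 genes met both the adjusted p under 0.05 and the fold change of 1 log2 unit used in the study, and 0 had an unadjusted p under 0.05. Over all features 4.89% and 16.2% did. A ratio of 1.6 cannot reach a log2 fold change of 1, so nothing is read from these counts.

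The genes at the ends of this range were constant by the rule, and on FPKM as deposited their libraries fell apart by genotype. They were picked for the largest differences between the genotype means. Within the narrow range that the rule allows, such differences leave little room for overlap, so the separation largely follows from the choice. In limma on FPKM as deposited their unadjusted p lay between 0.187 and 0.230. *Bol041766* had 10.7, 12.2 and 11.9 FPKM in wild-type and 16.3, 16.3 and 15.6 FPKM in *nwgl* leaves, a log2 ratio of 0.47. *Bol040285* had 15.1, 16.5 and 15.9 FPKM in wild-type and 19.4, 22.9 and 22.8 FPKM in *nwgl* leaves, a log2 ratio of 0.46. In both genes every *nwgl* library lay above every wild-type library. *Bol014972* had 10.4, 10.3 and 9.14 FPKM in wild-type and 7.98, 6.67 and 6.69 FPKM in *nwgl* leaves, a log2 ratio of -0.48. *Bol023603* had 8.11, 6.70 and 6.98 FPKM in wild-type and 5.40, 5.55 and 5.09 FPKM in *nwgl* leaves, a log2 ratio of -0.44. In these 2 every *nwgl* library lay below every wild-type library. After median-of-ratios scaling the genotypes overlapped in each of these genes, so the separation depended on the scale.

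Of genes that the study's supplement assigns to KEGG pathways, 64 could be looked up, 45 of them at the level of the constant genes. They belong to the ribosome, the pentose phosphate pathway, glycolysis, oxidative phosphorylation and endocytosis, functions that every leaf cell uses. The study had listed them as neighbours of lncRNAs chosen on the same libraries, so they are a small and selected part of each pathway. *Bol032220*, 1 of 8 genes of the pentose phosphate pathway at this level, was the 1 among the constant genes. The pathway supplies NADPH and sugar phosphates for biosynthesis. It had 19.0, 19.8 and 21.5 FPKM in wild-type and 16.5, 26.03 and 16.8 FPKM in *nwgl* leaves, with *nwgl* replicate 2 well above the other 5 libraries. Its ratio of 1.58 became 1.71 after scaling. None of 16 ribosome genes was constant, with ratios of highest to lowest from 2.35 to 10.4 (median 3.64). None of 5 glycolysis, 8 oxidative phosphorylation or 11 endocytosis genes was, with median ratios of 5.27, 3.21 and 2.31. The median over the 45 genes was 3.40, beside 2.92 for the genes of the same level. The 1 constant gene of 45 stands beside 5.61% of the genes of the same level.

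A constancy found on some libraries may fail in another, which was examined by applying the rule to 5 libraries and reading the remaining one. Without wild-type replicate 1 the rule chose 1052 genes, of which 472 (44.9%) were still within the ratio once that library was added. The shares were 62.3% of 745 genes for wild-type replicate 2 and 50.9% of 925 for wild-type replicate 3. They were 78.6% of 603 genes for *nwgl* replicate 1, 56.4% of 825 for *nwgl* replicate 2 and 75.3% of 627 for *nwgl* replicate 3. The left-out library was the highest of the 6 for 528 of the 825 genes in the case of *nwgl* replicate 2, and the lowest for 533 of the 1052 in the case of wild-type replicate 1. On scaled values the shares were 47.9% to 87.8%. The share that held was thus lowest for wild-type replicate 1 and highest for *nwgl* replicate 1 on both scales.

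**Figure D5:**
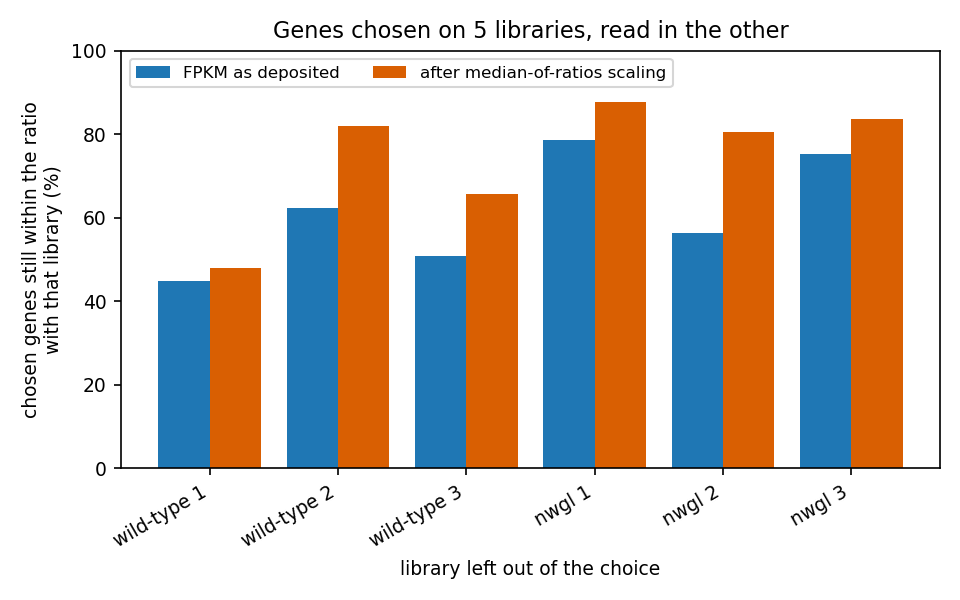
Share of genes chosen on 5 libraries that stayed within the ratio of 1.6 when the remaining library was added (y axis, %), by the library left out (x axis), as deposited and after median-of-ratios scaling. The shares as deposited run from 44.9% for wild-type replicate 1 to 78.6% for *nwgl* replicate 1.

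The same was done across genotypes. Of 1704 genes that met the rule in the 3 wild-type libraries, 970 (56.9%) were also within the ratio among the 3 *nwgl* libraries, beside 40.2% of all genes of that level. Of 3171 genes that met it in the *nwgl* libraries, 958 (30.2%) were within the ratio among the wild-type libraries, beside 21.7%. On scaled values the shares were 75.8% beside 65.3%, and 38.8% beside 33.2%. The share was above that of all genes of the level in each of these cases, and lower when read in the wild-type libraries. No test was made of these shares.

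Used as references, the 2 ends of the set put the libraries on different scales. The geometric mean of the 10 genes steadiest as deposited was 0.997, 1.04 and 0.998 in wild-type and 0.969, 1.05 and 0.957 in *nwgl* leaves, relative to its mean over the libraries. Division by it leaves FPKM nearly as it was. That of the 10 genes steadiest after scaling was 1.03, 1.21 and 0.827 in wild-type and 0.905, 1.22 and 0.876 in *nwgl* leaves, close to the median-of-ratios factors from which these genes were chosen. With the first set as reference, 1267 features were called different between genotypes by limma with Benjamini-Hochberg adjustment (same thresholds), with the second 1516, and with FPKM as deposited 1190. The share of calls that were higher in *nwgl* leaves was 75.8%, 74.6% and 75.4%. With FPKM as deposited, the count was 588, 822 and 825 without wild-type replicates 1, 2 and 3. It was 403, 520 and 1327 without *nwgl* replicates 1, 2 and 3. Without both libraries numbered 2 it was 52, with 2 libraries left per genotype. The loss of replicates and the loss of these particular libraries cannot be told apart there.

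The ratio was also read outside the annotated genes of this level. Of 396 new loci with a mean of 5 to 300 FPKM, 12 (3.03%) were within the ratio. Of 49 lncRNA transcripts of that level it was 1, MSTRG.8908.1, at 4.61, 6.45 and 5.19 FPKM in wild-type and 4.65, 6.12 and 6.54 FPKM in *nwgl* leaves. Among annotated genes of 300 FPKM or more it was *Bol038964*, at 281.9, 275.1 and 412.8 FPKM in wild-type and 336.9, 315.7 and 405.01 FPKM in *nwgl* leaves. It was highest in wild-type replicate 3, where the factor was lowest, and the genotypes overlapped.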

How the data were processed

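Leaf RNA of 3 wild-type and 3 *nwgl* replicates was sequenced from directional libraries. The authors used HISAT2 for alignment, with Bolbase V1.0 as reference, and StringTie 1.3.1 for quantification, and deposited FPKM per gene and per lncRNA transcript, with no counts. FPKM is scaled to mapped fragments only, so abundant genes can shift all others. Precision was judged from the replicates.

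The gene set, the lists and the tests were chosen with earlier results of these data known. Genes named are the 10 of lowest coefficient of variation on each scale, those at the limit and at both ends of the genotype ratio, and those in a KEGG list. The 4 most abundant, the 5 steady on both scales, the leading pairs and the first genes by pair ratio were named after their values were seen. Coefficients of variation use the sample SD. limma 3.58.1 in R 4.3.3 (lmFit, eBayes with trend) was fitted to log2(FPKM + 0.1) (24332 features, mean FPKM 0.1 or more), and tested on simulated data. The rest used Python 3.11.15 with numpy 2.4.6 and pandas 2.3.3. The lncRNA table was used for 1 count. Alternatives were other scalings, limits and pseudocounts, a replicate block and each library left out.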

Additional observations from a re-analysis of the deposited data

How the results depend on the processing

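The number of constant genes, 470, was 1159 with median-of-ratios scaling, 1081 with factors from annotated genes of mean FPKM 5 to 300, 1148 with upper-quartile scaling and 1173 with quantile normalization. It was 107 with a ratio of at most 1.4, 1690 with 2, 789 with a mean of at least 1 FPKM and 202 with at least 10. It was 603 to 1052 with a library left out and 1555 without both libraries numbered 2, since fewer values have to lie within the ratio. The number of the 470 within the ratio after scaling, 265 with median-of-ratios factors, was 277 with upper-quartile scaling. It was 131 with factors from annotated genes of mean FPKM 5 to 300 and 152 with quantile normalization. With a library left out, 351 to 705 genes met both. The 42 genes whose genotypes do not overlap became 13 with median-of-ratios scaling, 10 with quantile normalization and 64 to 118 with a library left out. The 1190 features called by limma became 777 with a pseudocount of 1, 761 without a filter on low values and 735 at a mean of at least 1 FPKM. They became 1527 with median-of-ratios scaling and 1583 with quantile normalization. They became 403 to 1327 with a library left out (588 without wild-type replicate 1, 403 without *nwgl* replicate 1, 520 without *nwgl* replicate 2). They became 52 without both libraries numbered 2, a setting with fewer replicates that was added after the data were seen.

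The replicate number as a block gave 1314 calls. Same-numbered libraries had correlations of their deviations of -0.03, 0.12 and 0.18 over 17374 features. Differently numbered libraries had correlations from -0.26 (wild-type replicate 3 and *nwgl* replicate 2) to 0.14 (wild-type replicate 1 and *nwgl* replicate 2). These values do not settle whether the numbers pair the libraries, and the main fit used no block. Among the 27 constant genes named by the rule, the coefficient of variation moved by more than its jackknife error in 25 with median-of-ratios scaling and in 22 with quantile normalization. It did so in 1 case with a library left out. The jackknife error is computed from those same left-out values, which nearly fixes that last count, so it does not show steadiness. Their log2 fold changes moved by less than the replicate SD in all 243 refits. A replicate block leaves the fold change as it was, and leaving out a single library cannot shift it by that SD. Nothing is therefore read from this count. With 6 libraries and no counts, a coefficient of variation of a few percent cannot be told from the error of the measurement.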
